A study of Mus musculus with 28 samples.

Results

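The cytosolic ribosome is built from ribosomal RNA and proteins whose genes are named Rpl (large, 60S subunit) and Rps (small, 40S subunit). These proteins are needed in near-equal numbers, and in vertebrates most of their mRNAs begin with a cytosine followed by a run of pyrimidines, the 5′ terminal oligopyrimidine tract through which mTOR signalling regulates their translation. In the developing cortex dividing progenitors make many ribosomes, and ribosomal protein mRNA is one of the most abundant classes of mRNA in such tissue.

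The genes described here were chosen by symbol alone: Rpl or Rps followed by a number, with or without a final a or x, plus Rplp0, Rplp1, Rplp2 and Rpsa. The rule found 76 genes, 30 of the small subunit and 46 of the large, among 13846 genes listed for embryonic cortex and the same 76 among 14104 genes listed for adult prefrontal cortex (PFC). All 76 passed the filter on low values in both tissues. Genes that carry a ribosomal protein under another kind of name (Fau, Rack1, Rps27l, Rpl22l1 and others) fall outside the rule and are given separately.

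The libraries came from mice of a line in which Myt1l, a zinc finger transcription factor of neurons, was knocked out. Embryonic cortex at E14.5 was sampled from 6 wild-type (WT, 5 labelled female and 1 male), 6 heterozygous (Het, 3 and 3) and 4 homozygous mutant (Hom, 3 and 1) embryos. The adult PFC was sampled from 6 WT and 6 Het mice, 3 of each sex per genotype. The labels do not give the strain, the adult age or the kind of knockout allele, nor whether litters were shared.

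Values are CPM, counts scaled to a library total, taken from tables named as made after RUVr, a method that removes unwanted variation. The CPM listed did not add up to the same total in every library. In E14.5 cortex Myt1l ran from 45.9 to 66.6 CPM in WT, from 30.6 to 59.5 in Het and from 18.2 to 23.3 in Hom, so that Hom lay below all WT libraries and Het overlapped WT. In the PFC it ran from 146.0 to 168.2 CPM in WT and from 104.8 to 120.6 in Het. The summed CPM of embryonic cortex markers was 5709 to 7344 in E14.5 cortex and 1370 to 1601 in the PFC, and that of adult cortical neuron markers was 171.2 to 258.8 and 10200 to 12080, as the tissue labels have it. The sum of 4 Y-linked genes went against the labelled sex in 2 E14.5 Het libraries, Het F10 (58.7 CPM, labelled female) and Het M11 (0 CPM, labelled male). The counts for Het against WT, Hom against WT and Hom against Het are therefore also given without both, a choice made after the values were seen.

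The start sites of some of the genes whose levels differed most are shown because a pyrimidine tract at the start is the feature these mRNAs are known for. Each window holds 40 bases before and 20 bases from the annotated RefSeq start on (GRCm38.p6), so the start is base 41. Capitals mark runs of C followed by at least 4 pyrimidines, in the sense strand, within 20 bases on either side of the start. The first 4 were higher in E14.5 Het, Rplp0 and Rpsa were lower in Hom, and Rpl13 had the largest spread between libraries. Their positions are chrX:37085203-37085262 (minus strand) for Rpl39, chr3:90213629-90213688 (minus) for Rps27, chr2:39005112-39005171 (minus) for Rpl35, chr9:44407674-44407733 (plus) for Rps25, chr5:115559427-115559486 (plus) for Rplp0, chr9:120127726-120127785 (plus) for Rpsa and chr8:123102310-123102369 (plus) for Rpl13.
Rpl39: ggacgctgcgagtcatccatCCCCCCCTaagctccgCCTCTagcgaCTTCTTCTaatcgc
Rps27: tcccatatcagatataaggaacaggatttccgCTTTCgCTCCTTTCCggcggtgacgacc
Rpl35: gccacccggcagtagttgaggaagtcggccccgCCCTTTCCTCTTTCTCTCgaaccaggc
Rps25: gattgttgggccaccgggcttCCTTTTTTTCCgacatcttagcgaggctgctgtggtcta
Rplp0: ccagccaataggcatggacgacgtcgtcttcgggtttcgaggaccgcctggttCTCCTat
Rpsa: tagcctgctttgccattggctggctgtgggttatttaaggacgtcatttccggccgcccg
Rpl13: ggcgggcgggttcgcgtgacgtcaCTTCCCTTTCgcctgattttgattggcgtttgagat

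In Rpl39, Rps27 and Rpl35 a run covers the annotated start, in Rps25 and Rpl13 the run lies before it, in Rplp0 after it, and in Rpsa none was found in the window. The windows of Rpl22 and Rpl35a, also higher in E14.5 Het, are not printed and held no run within 20 bases of the start. Rpl22 had 2 starts listed and Rpl35a had 3, and only the first listed was used. No window was available for Rpl3 and Rpl8, which were lower in Hom. A promoter of 300 bases was listed for 56 of the 76 genes. A run within 20 bases of the start was present in 41 of these 56 (73.2%), against 45.9% of all 32851 promoters listed, and a run beginning exactly at the annotated start in 12 (21.4%), against 2.51%. The letters CGGAAG, the core bound by ETS family factors, occurred on either strand in 39 of 56 promoters (69.6%), against 16.9% of all. AAGATGG, which holds a core bound by YY1, occurred on either strand in 8 (14.3%), against 6.34%. Of the 14 listed genes that were higher in E14.5 Het, 11 (78.6%) held a run near the start, and of the other 42 genes 30 did (71.4%). For CGGAAG the shares were 11 of 14 (78.6%) and 28 of 42 (66.7%). These matches are a description of the letters in these windows.

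Ribosomal protein mRNA made up 12.7 to 14.4% of all CPM listed per E14.5 library and 3.00 to 3.91% per PFC library. In E14.5 WT the summed CPM had a lowest value of 125650, a median of 128878 and a highest value of 143081. In Het the lowest, median and highest sums were 130140, 139422 and 147895, and the 4 Hom libraries had 138834, 141774, 122906 and 123681. The genotypes overlapped: both Het extremes lay above the matching WT extremes. By sum, 2 Hom libraries lay below every WT library while 2 lay within the WT range. As a share of all CPM listed in a library, the genes made up 12.66 to 13.98% in WT (mean 13.15). The shares were 13.28 to 14.39% in Het (mean 13.8) and 12.86 to 14.03% in Hom (mean 13.46). By share, no Hom library lay below the WT range, and the Hom mean lay above the WT mean. The mean sums were 132700 ± 8110 (SD, n = 6) in WT, 139100 ± 7330 (n = 6) in Het and 131800 ± 9900 (n = 4) in Hom.

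**Figure D1:**
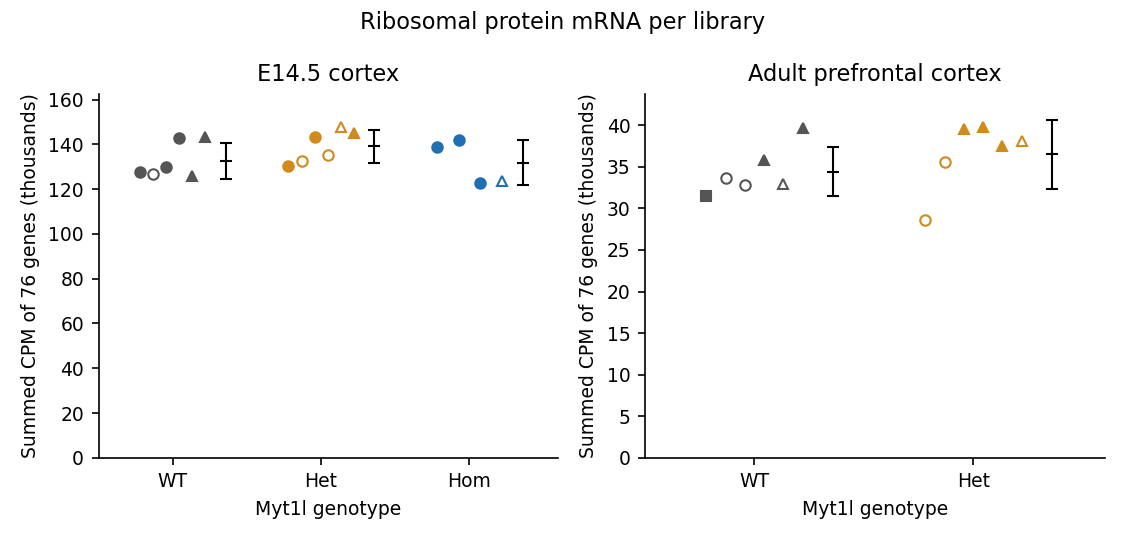
Summed CPM (in units of 1000, axis from 0) of the 76 ribosomal protein genes in each library of E14.5 cortex (left) and adult PFC (right), by Myt1l genotype. Filled points are libraries labelled female and open points male; circles and triangles mark the animal identifier prefixes 14424 and 14526 (left) or 14308 and 14309 (right), the square is prefix 14111, and bars give mean and SD. The genotypes overlap in both tissues, and the lowest PFC library is Het M05 at 28646.

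Of the 100 most abundant genes by CPM in WT, 33 were ribosomal protein genes in E14.5 cortex and 3 in the PFC. Per kilobase of annotated mRNA, the highest levels in E14.5 WT were those of Rpl32 (8051 CPM per kb), Rps14 (7785) and Rps19 (6460). In PFC WT they were those of Rpl13 (2074), Rps14 (2053) and Rpl41 (1803). The order of levels per kilobase was similar in both tissues (Spearman's rho 0.812 across 76 genes, which are not replicates).

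The lowest levels per kilobase in both tissues belonged to Rps10, Rpl24 and Rpl13a, at 1.06, 3.41 and 83.8 CPM per kb in E14.5 WT and 3.45, 1.83 and 26.2 in PFC WT. Rps10 is a protein of the small subunit, and Rpl24 and Rpl13a are proteins of the large. In the GENCODE vM21 annotation, 20.6% of the exon bases of Rps10, 47.0% of Rpl24 and 35.4% of Rpl13a are shared on the same strand with another gene (RPS10-NUDT3, Gm28037 and Gm45713 among them). Their values are reads assigned to 1 gene in the deposited table, and the part of exon sharing in their level was not tested. In the same annotation 59 of the 76 genes had pseudogenes named for them, up to 24 for 1 gene. The numbers were 4 for Rps10, 0 for Rpl24, 1 for Rpl13a, 6 for Rpl13 and 11 for Rps2. The part of such copies in the level of any member was not tested.

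The E14.5 and PFC tables were normalized separately, so their levels are set side by side without a test. In WT, 73 of 76 genes had more CPM at E14.5 than in the PFC, with a median ratio of 3.84. The ratio was highest for Rplp0 (10.7), which anchors the P stalk that recruits elongation factors. Only Rps10 (0.307), Rpl13 (0.477) and Rps2 (0.652) had fewer CPM at E14.5.

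In heterozygous E14.5 cortex 15 ribosomal protein genes were higher than in WT and none was lower (limma, Benjamini-Hochberg adjusted p under 0.05 over 12429 genes). The background was 2.84% of all genes tested called higher and 2.98% called lower, so that the members' share is above the first and below the second. The median log2 fold change over the 76 was 0.14, against 0.03 over all genes tested, and 65 of 76 were above 0. The 15 were Rpl39, Rps27, Rpl35, Rps25, Rpl22, Rpl35a, Rps7, Rps27a, Rps24, Rpl23, Rpl34, Rpl27a, Rpl11, Rpl36a and Rpl38. They split into 5 of 30 small subunit and 10 of 46 large subunit genes. With 0 lower calls, 40 of the 76 genes had an unadjusted p under 0.05 in either direction, against 2772 of all 12429. Voom called 16 higher and 0 lower, against 335 and 360 over all genes.

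Rpl39, a short protein that lines the peptide exit tunnel and is encoded on the X chromosome, had the lowest p. Its lowest, median and highest CPM were 590.3, 695.8 and 805.7 in WT, and in Het it ran from 812.0 to 1073. All 6 Het libraries lay above all 6 WT libraries. The log2 fold change was 0.42 (SE 0.08, limma adjusted p = 0.00517, n = 6 and 6).

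Rps27, a zinc finger protein of the small subunit, had 1479 to 1903 CPM in WT (median 1716) and 1952 to 2493 in Het. Again no Het library overlapped WT, and the log2 fold change was 0.37 (SE 0.07, limma adjusted p = 0.00648). Rpl35, at the rim of the exit tunnel, had 731.7 to 934.1 CPM in WT and 941.7 to 1300 in Het, also without overlap. Its log2 fold change was 0.42 (SE 0.08, limma adjusted p = 0.00657). Of its exon bases 66.2% are shared with Arpc5l or Wdr38, counting both strands. Arpc5l had 51.0 ± 3.85 CPM in WT and 56.0 ± 4.84 in Het (SD, n = 6 each), and was not called. The part of exon sharing in the Rpl35 difference was not tested.

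Rps25, a small subunit protein needed for initiation at several internal ribosome entry sites, had 1199 to 1558 CPM in WT and 1550 to 2090 in Het. The groups met only at their edges, where the lowest Het library lay just under the highest WT library. The log2 fold change was 0.37 (SE 0.08, limma adjusted p = 0.008). Of the exon bases of Rps25 24.8% are shared with Ccdc84 or Trappc4 counting both strands, and 0% on the same strand. The part of exon sharing in the Rps25 difference was not tested. Rpl22, which has the close paralogue Rpl22l1, changed by 0.28 (limma adjusted p = 0.0108), and Rpl35a, a gene mutated in Diamond-Blackfan anaemia, by 0.30 (limma adjusted p = 0.0109).

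The counts by role that follow are to be read against 15 of 76 for all members and 2.84% of all genes, and no role was tested against the rest. By role, 2 of 7 proteins at the rim of the exit tunnel rose (Rpl35 and Rpl39), and the other 5 had positive values not past the test. Of 17 genes mutated in Diamond-Blackfan anaemia, an inherited failure of red cell production, 5 rose (Rps7, Rps24, Rpl11, Rpl35 and Rpl35a) and all 17 had positive values. Of Rpl5 and Rpl11, which with 5S rRNA form a particle that restrains Mdm2, Rpl11 rose by 0.24 (limma adjusted p = 0.0374) and Rpl5 had a log2 fold change of 0.08. Rps27a, made as a fusion with ubiquitin, rose by 0.27 (limma adjusted p = 0.0201). Of 4 X-linked genes Rpl39 and Rpl36a rose. Rps6, the small subunit substrate of S6 kinase, had a log2 fold change of -0.005 and did not pass the test.

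The lower end of the ordering was held by Rplp0 (log2 fold change -0.18), Rpsa (-0.15), Rpl3 (-0.15) and Rpl8 (-0.12), none of which passed the test in Het. Rpsa is the laminin receptor protein of the small subunit, and Rpl3 and Rpl8 lie near the peptidyl transferase centre. Of the other P stalk proteins, Rplp1 had a log2 fold change of 0.16 and Rplp2 of 0.02, neither past the test.

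**Figure D2:**
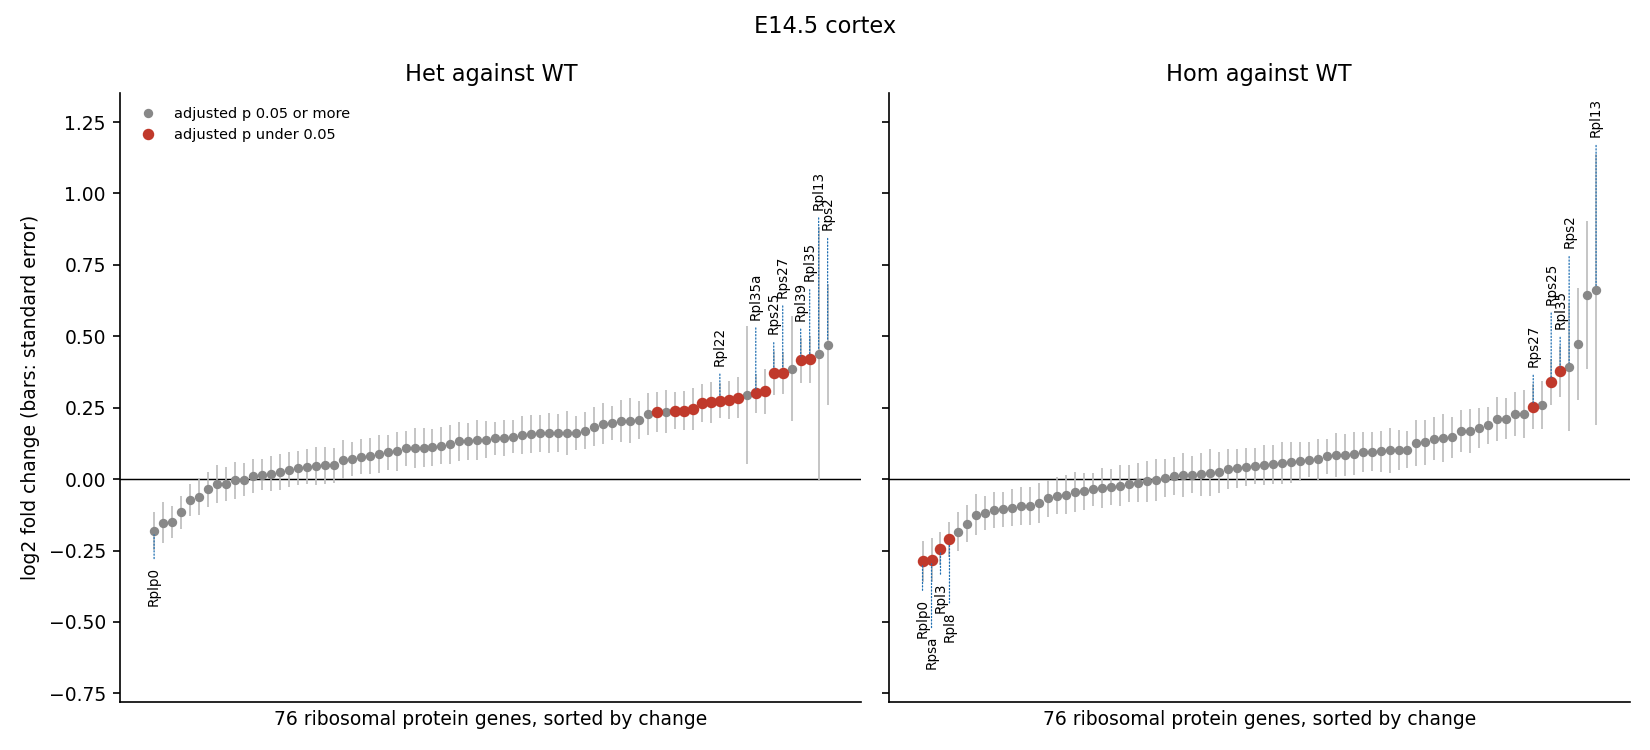
log2 fold change with its standard error of each of the 76 ribosomal protein genes in E14.5 cortex, sorted, for Het against WT (left) and Hom against WT (right). Red points passed the test, dotted blue lines only join a name to its point, and Rpl13 and Rps2 are labelled for their wide errors. Het has 15 red points, all above 0, and Hom has 3 above and 4 below.

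The Het result moved with the choice of libraries and of model. Leaving out 1 library at a time gave 4 (without Het F07) to 23 (without Het F10 or Het M07) genes higher and 0 to 2 lower (2 without Het M07). It gave 8 without Het F02, 7 without WT F04 and 9 without WT M03. Calls over all 12429 genes moved as well, with 54 higher without Het F07, 558 without Het F10 and 586 without Het M07. They were 167 without Het F02, 133 without WT F04 and 258 without WT M03. Without both Het F10 and Het M11, 20 members were higher and 0 lower, against 594 and 492 over all genes. Rpl39, Rps27, Rpl35 and Rps25 passed the test whichever library was left out, with limma adjusted p up to 0.0455. Centring each library on its median gave 10 higher and 0 lower, and over all genes 213 higher and 509 lower in place of 353 and 371. Libraries labelled female, with Het F10 among them, gave 5 higher (189 over all genes). A limma fit with neither the variance trend nor the robust option gave 1, Rpl39 (114 over all genes).

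The same direction was present within both identifier prefixes, the first part of the animal numbers, whose meaning the labels do not give. Among prefix 14424 (4 Het and 4 WT) 60 of 76 genes were higher in Het, with a median log2 difference of 0.07. Among prefix 14526 (2 and 2) 64 of 76 were higher, with a median of 0.20. Rpl39 was higher by 0.33 and 0.59 and Rps27 by 0.27 and 0.57 in the first and the second prefix.

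Other transcripts were looked at in the same contrast and in Hom against WT. Over all genes 2.84% were called higher and 2.98% lower in Het, with a median log2 fold change of 0.03. In Hom 3.23% were called higher and 4.37% lower, with a median of 0.02. The counts and medians that follow are to be read against these, and no list was tested against the rest. The 11 tested mitochondrially encoded genes were all positive in Het (median log2 fold change 0.46, 4 called), and their summed CPM was 6097 to 9252 in WT and 6795 to 11380 in Het. In Hom all 11 were positive too (median 0.24, 2 called). All 9 choroid plexus markers tested were positive in Het (median 0.51, 1 called), with summed CPM of 1457 to 4145 in WT and 3103 to 5375 in Het. In Hom 3 of the 9 were positive (median -0.01, 0 called). Of 11 erythroid markers 8 were positive in Het and none was called, with 8357 to 16230 CPM in WT and 10350 to 18540 in Het. In Hom 1 of the 11 was positive and 0 were called. Of 10 embryonic cortex markers 3 were higher and 1 lower in Het and in Hom alike, and of 8 adult cortical neuron markers 1 was higher and 1 lower in Het and none was called in Hom. Of the other marker lists, 1 of 10 meningeal genes was higher in Het, and 1 of 5 astrocyte genes was lower in Het and in Hom. The summed CPM of the astrocyte markers was 956.9 to 1148 in WT, 780.1 to 962.6 in Het and 779.2 to 829.6 in Hom. By that sum every Hom library lay below every WT library, while Het overlapped WT. In Het and in Hom, 0 of 8 endothelial, 0 of 8 microglial and 0 of 6 oligodendrocyte genes were called. The part of these transcripts in the ribosomal protein result was not tested, and in bulk tissue a change in the share of a cell type and a change in RNA per cell cannot be told apart.

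In homozygous mutant E14.5 cortex 3 ribosomal protein genes were higher than in WT (Rpl35, Rps25 and Rps27) and 4 were lower (Rpl3, Rplp0, Rpsa and Rpl8). Over all 12429 genes tested 3.23% were called higher and 4.37% lower, so that both counts are near the background. The median over the 76 was 0.05, against 0.02 over all genes, and 49 of 76 were above 0. Centring each library on its median gave 2 higher and 5 lower, and over all genes 294 higher and 746 lower in place of 401 and 543.

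Rplp0 had 5271 to 6188 CPM in WT (median 5552), and the Hom libraries had 5043, 4830, 4189 and 4369. All 4 Hom libraries lay below all 6 WT libraries. The log2 fold change was -0.29 (SE 0.07, limma adjusted p = 0.0153). Rpsa had 3947 to 4771 CPM in WT and 3879, 3584, 3069 and 3309 in Hom, likewise without overlap, with a log2 fold change of -0.28 (SE 0.08, limma adjusted p = 0.0245).

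Rpl3 had 4331 to 4964 CPM in WT and 4065, 4092, 3724 and 3781 in Hom. Its groups did not overlap either, and the log2 fold change was -0.24 (SE 0.06, limma adjusted p = 0.0136). Rpl8 had 2397 to 2761 CPM in WT and 2352, 2353, 2000 and 2108 in Hom, with the highest Hom library just below the lowest WT library (log2 fold change -0.21, limma adjusted p = 0.0373). All 4 proteins placed near the peptidyl transferase centre had negative values in Hom, and the other 2, Rpl4 and Rpl10, did not pass the test.

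The 3 genes that were higher in Hom are among those higher in Het, and both comparisons share the WT libraries. Rpl35 had 1127, 1192, 1078 and 1024 CPM in Hom, all above the WT maximum of 934.1, with a log2 fold change of 0.38 (SE 0.09, limma adjusted p = 0.0122). Rps25 changed by 0.34 (limma adjusted p = 0.0129) and Rps27 by 0.25 (limma adjusted p = 0.0479), both with all Hom libraries above WT. Rpl39, with 826.9, 936.6, 758.4 and 818.5 CPM in Hom, had a log2 fold change of 0.26 that did not pass the test (limma adjusted p = 0.0551), and 1 Hom library overlapped WT.

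The 4 lower calls depended on single libraries: none passed without Hom F09, 1 without Hom M02, 2 without WT F06 and 2 without WT F04. Over all genes the lower calls in these fits were 278, 347, 407 and 302, against 543 with all libraries. The higher calls ran from 1 (without Hom F04) to 5 (without Het M07 or Het M01). Over all genes they were 159, 486 and 407, against 401 with all libraries. Without both Het F10 and Het M11, which share the fit, 4 members were higher and 4 lower in Hom, against 520 and 639 over all genes. Rps27 passed in 6 of 16 fits that left out 1 library, and Rps25 in all 16. With neither the variance trend nor the robust option, none of the 7 genes passed, against 223 higher and 245 lower calls over all genes. Within prefix 14424 (3 Hom and 4 WT) 59 of 76 genes were higher in Hom, whereas within prefix 14526 (1 Hom and 2 WT) 24 were, so the overall direction did not hold in both. Rplp0, Rpsa and Rpl3 were lower and Rpl39, Rps27 and Rpl35 higher in both prefixes.

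**Figure D3:**
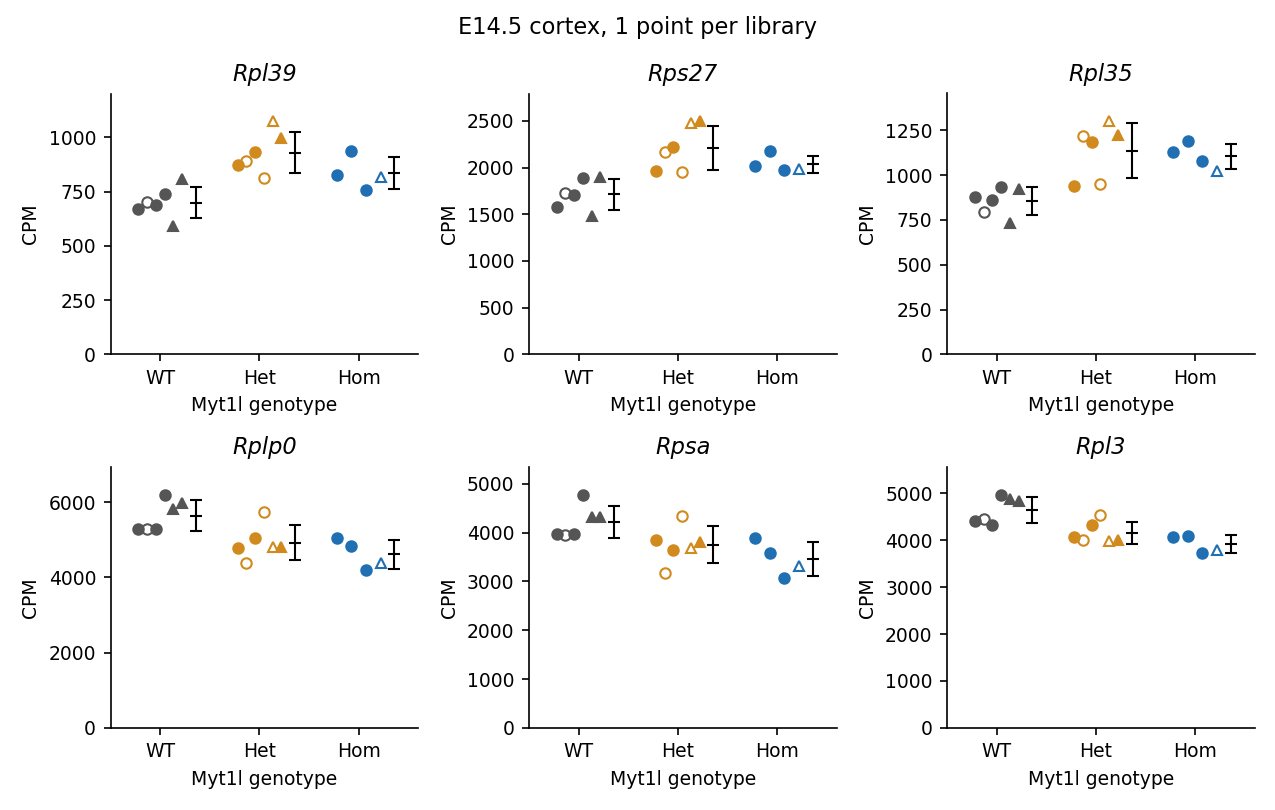
CPM per library (axis from 0) of Rpl39, Rps27 and Rpl35 (top) and Rplp0, Rpsa and Rpl3 (bottom) in E14.5 cortex by genotype, with mean and SD as bars. Filled points are libraries labelled female, open points male, and circles and triangles the identifier prefixes 14424 and 14526. The Het points of the top row lie above all WT points, and the Hom points of the bottom row lie below all WT points.

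No ribosomal protein gene was called between Hom and Het. Over all genes 0% were called higher and 0.00805% lower (1 gene, which was Myt1l). Here 73 of 76 genes had a negative value (median log2 fold change -0.09, against -0.01 over all genes). In limma 5 of 76 had an unadjusted p under 0.05, against 636 of all 12429 genes. Voom also called 0, with 5 at an unadjusted p under 0.05. That count rested on single libraries: it was 18 without Het F10, 16 without Hom F04 and 11 without Het M07. It was 1 without Het F02, Het M01 or Het F07, 2 without WT M03 and 3 without WT F05 or WT F06. It was 0 without Hom F09 or Hom M02. Over all genes the same count ran from 484 (without Hom M02) to 800 (without Het M11). Without both Het F10 and Het M11 the member count was 24 (986 over all genes), with a median of -0.14. With GC and length correction it was 0, with a median of -0.03 and 13 of 76 genes above 0. No member was called in any of these. The 4 genes lower in Hom than in WT were therefore not shown to differ between Hom and Het.

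Among the 76 genes the change differed with the length of the coding sequence. In E14.5 Het, 10 of 25 genes with under 400 coding bases, 5 of 30 with 400 to 600 and 0 of 21 with at least 600 were called higher, with median log2 fold changes of 0.21, 0.15 and 0.03. In Hom, the 3 higher genes were all in the shortest class and the 4 lower genes all in the longest. These classes were set after the values were seen. Spearman's rho between change and coding length was -0.49 in Het and -0.39 in Hom across the 76 genes, which share libraries. Over all 12429 genes the rho with transcript length was -0.10 in Het and -0.02 in Hom, and that with GC content was -0.20 and -0.18.

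Each library was also corrected for GC content and length of the longest annotated transcript, by a spline fit over all genes. The median of the 76 in Het then fell to 0.003, and 39 of 76 were above 0. Among the 76 the rho with coding length was still -0.30 in Het and -0.27 in Hom. Over all genes the rho with transcript length was then 0.008 and 0.012. After correction 5 genes were higher (Rpl39, Rps27, Rpl35, Rps25 and Rpl22), against a background of 0.901%, and 3 were lower (Rpl8, Rplp0 and Rps15), against 3.08%. The corrected log2 fold changes were 0.21 for Rpl39, 0.31 for Rpl35 and -0.21 for Rplp0. Rpl38, with 210 coding bases, went from 0.24 to -0.01. In Hom the correction left the same 3 genes higher (background 1.86%) and gave 6 lower, the 4 named above together with Rpl10 and Rps15 (background 4.45%).

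**Figure D4:**
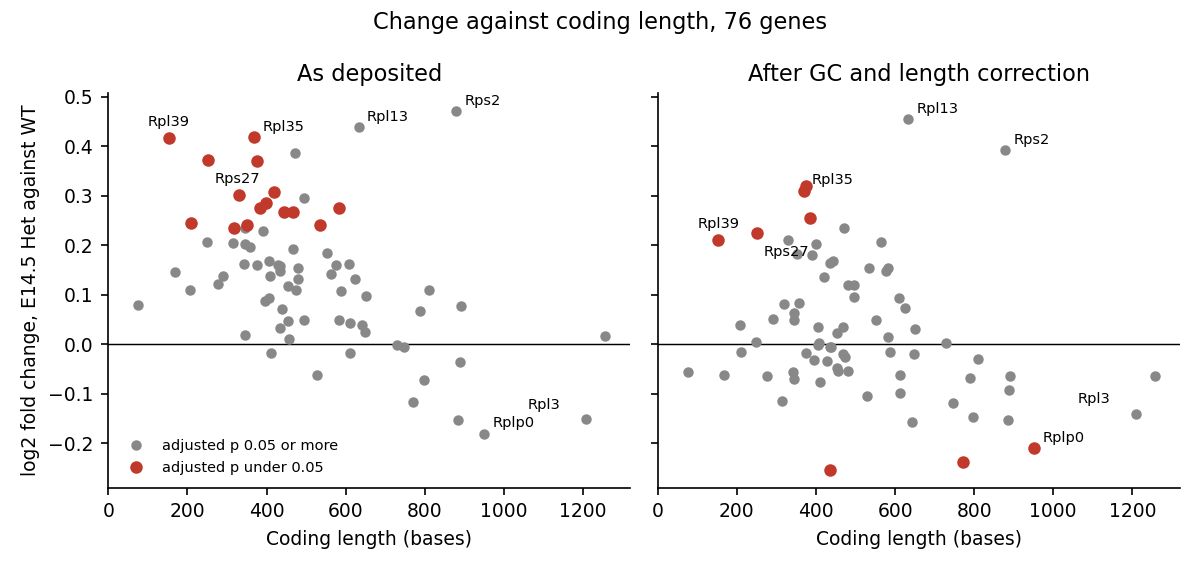
log2 fold change of E14.5 Het against WT (vertical) over coding length in bases (horizontal) for the 76 ribosomal protein genes, from the deposited values (left) and after correction of each library for GC content and transcript length (right). Red points passed the test. On the left 15 genes, all with under 600 coding bases, are red; on the right 5 are red above 0 and 3 below.

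Rpl13 and Rps2 varied apart from the other genes at E14.5. Within genotypes the median pairwise correlation among the 76 genes was 0.748 over 16 E14.5 libraries, which share depth and scaling, but the mean correlation with the other genes was -0.29 for Rpl13 and -0.38 for Rps2. Rpl13, a large subunit protein, had a lowest, median and highest value of 438.6, 705.9 and 1333 CPM in WT. It ran from 511.2 to 2812 CPM in Het, and the Hom libraries had 1213, 537.7, 1575 and 1978. The genotypes overlapped, with 2 Het libraries and 1 Hom library below the WT median, and the log2 fold changes of 0.44 (SE 0.45) in Het and 0.66 (SE 0.47) in Hom did not pass the test. Its coefficient of variation within groups was 50.7%, the largest of the 76, against 5.47% for Rpl3, the smallest.

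Rps2, on the mRNA entry side of the small subunit, ran from 176.0 to 265.7 CPM in WT and from 231.1 to 414.2 in Het, and the Hom libraries had 251.1, 274.4, 458.0 and 243.3. Its log2 fold changes of 0.47 in Het and 0.39 in Hom did not pass the test. In the PFC Rpl13 ran from 1291 to 1796 CPM and Rps2 from 290.3 to 406.3 over all 12 libraries. Among 12427 genes compared, those most like Rpl13 over the 16 E14.5 libraries were Psmd5 (Pearson's r 0.977 on log2 values), Cacybp (0.975) and Smim14 (0.966). Psmd5 ran from 29.7 to 138 CPM. Rpl13 was singled out after its values were seen.

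**Figure D5:**
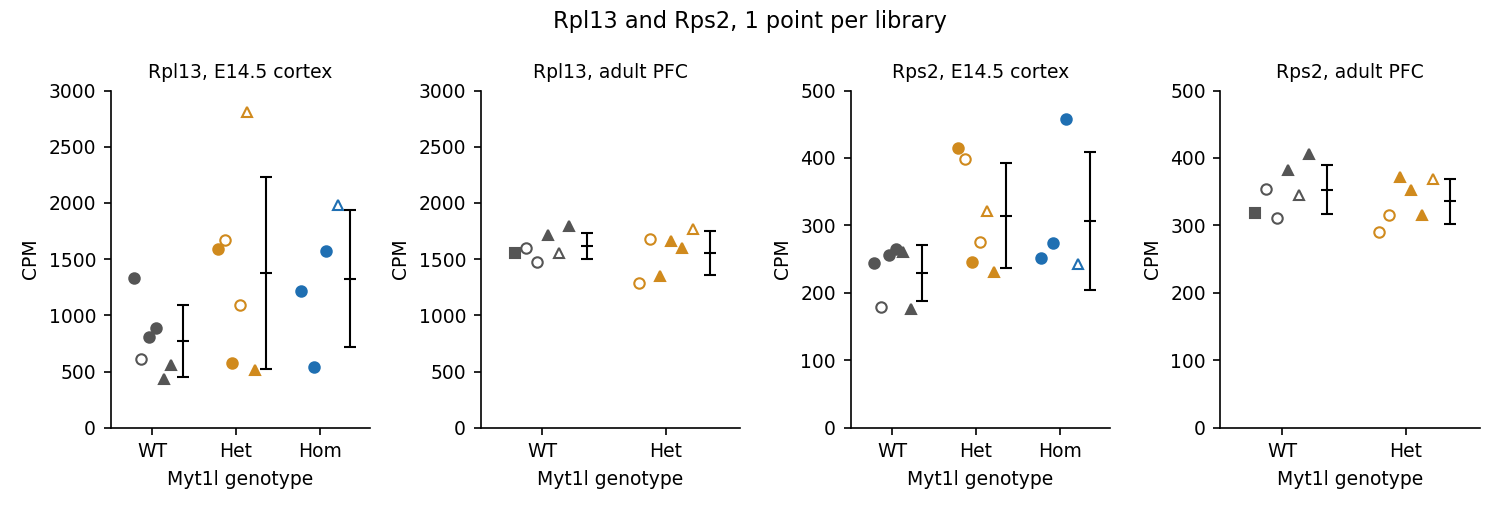
CPM per library (axes from 0) of Rpl13 and Rps2 in E14.5 cortex and adult PFC by genotype, with mean and SD as bars; filled points are libraries labelled female, open points male, and shapes mark identifier prefixes. At E14.5 Rpl13 runs from 438.6 to 2812 CPM within and across genotypes, and in the PFC from 1291 to 1796.

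In heterozygous adult PFC no ribosomal protein gene was called, against 0.179% of 12870 genes called higher and 0.225% called lower. In limma 4 of 76 had an unadjusted p under 0.05, against 1749 of all 12870 genes, so the members' share was the smaller. Voom also called 0, with 4 such members. Values were positive for 73 of 76, with a median log2 fold change of 0.08 against 0.01 over all genes. The lowest p was that of Rpl35a (0.18, SE 0.08, limma adjusted p = 0.28). The summed CPM was 31466 to 39726 in WT (median 33333) and 28646 to 39834 in Het (median 37800), so that the genotypes overlapped over the whole WT range. The count at an unadjusted p under 0.05 rested on single libraries. It was 55 of 76 without Het M05 (median 0.15), 16 without WT F06 (median 0.12) and 0 without WT F04 (median 0.04, 66 positive). Over all 12870 genes the counts in these fits were 2126, 1818 and 1419. No member was called in any of these.

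The genes highest or lowest in E14.5 mutants were not called in the PFC. Rpl39 had 129.7 to 199.0 CPM in WT and 120.0 to 215.1 in Het, with overlapping groups and a log2 fold change of 0.09 (SE 0.11). Rps27 had 362.7 to 479.0 and 307.5 to 594.6 CPM (0.11, SE 0.12). Rplp0 had 497.9 to 572.9 CPM in WT and 459.9 to 594.9 in Het (0.07, SE 0.05). Whether the effect of genotype differed between the tissues was not tested, since the tables were normalized separately.

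The positive PFC direction did not hold within both identifier prefixes that hold both genotypes. Among prefix 14309 (4 Het and 3 WT) 73 of 76 genes were higher in Het (median log2 difference 0.12). Among prefix 14308, all male with 2 Het and 2 WT, 12 of 76 were (median -0.06). Prefix 14111 holds a single WT library.

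By labelled sex, 73 of 76 genes were higher in Het among females (median 0.15, 3 and 3) and 49 of 76 among males (median 0.03, 3 and 3). The interaction of genotype and sex, the male minus the female effect, had a median of -0.11 over the 76 genes, with 9 above 0. None was called in limma (background 0% in both directions), and 2 had an unadjusted p under 0.05, against 1092 of all 12870 genes. Voom also called 0, with 2 such members. That median went to 0.01 without Het M05, the library with the lowest sum, and to -0.02 without WT F04 or, equally, with the prefix as a block. It went to -0.19 without Het M09 and -0.18 without WT F06, with 18 and 17 members at an unadjusted p under 0.05. Over all genes 1081 and 1266 were. The member count was 10 with GC and length correction (1114 over all genes), 7 without Het F07 (1183) and 5 without Het M08 (1032). It was 1 or 2 without any other library, with no member called.

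The relatives outside the rule and the rest of the translation machinery were measured with the same fits. The share of all genes called higher and lower, against which each list's counts are to be read, was 2.84% and 2.98% in Het and 3.23% and 4.37% in Hom. Of 10 related genes tested at E14.5, 3 rose in Het and the same 3 in Hom: Rps27l, Rps27rt and Rpl22l1, paralogues or copies of Rps27 and Rpl22. Rps27l had 296.9 to 360.2 CPM in WT, 378.5 to 478.4 in Het and 394.9 to 453.4 in Hom, above every WT library in both mutants. Its log2 fold change was 0.40 in Het (limma adjusted p = 0.00418) and 0.33 in Hom (limma adjusted p = 0.0109). Rpl22l1 rose by 0.64 in both (limma adjusted p = 0.00832 in Het and 0.00813 in Hom). Reads shared between such close copies could be split by the counting, so these values and those of Rps27 and Rpl22 are uncertain.

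Rack1, a scaffold protein of the small subunit head, fell in Hom by 0.28 on the log2 scale (limma adjusted p = 0.0301), from 2092 to 2482 CPM in WT to 1660 to 1977 in Hom. Of 20 translation factors and other mRNAs known for a pyrimidine tract, 5 fell and 2 rose in Hom, and 2 fell and 2 rose in Het. Eef2, the elongation factor for translocation, fell in Het (log2 fold change -0.35, limma adjusted p = 0.00645) and in Hom (-0.41, limma adjusted p = 0.00216). It had 3022 to 3632 CPM in WT and 2425 to 2628 in Hom. Eif3l, a subunit of initiation factor 3, fell in both, and Eif3e, another subunit, rose in Het (0.28, limma adjusted p = 0.0133).

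Of 36 ribosome biogenesis genes 5 fell in Het and 7 in Hom and none rose, with medians of -0.04 and -0.07. They include Nop2, an rRNA methyltransferase (log2 fold change -0.34 in Het and -0.41 in Hom), Pes1, a 60S assembly factor (-0.34 and -0.32), and Polr1c, a subunit of RNA polymerases I and III (-0.19 and -0.28). Of 20 genes of cap-dependent initiation and mTOR signalling 1 fell in Het, Mlst8 (-0.32, limma adjusted p = 0.046), and none was called in Hom. Of 76 mitochondrial ribosomal protein genes tested 4 rose in Het, among them Mrps18c (0.48, limma adjusted p = 0.0092), and 2 rose in Hom, with no gene lower, and the count in Hom is near the share over all genes. In the PFC no gene of these lists was called, and the lowest p among them was that of Mrps24 (-0.34, limma adjusted p = 0.0645).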

How the data were processed

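Per the labels' protocols, a Zymo kit gave the RNA and the libraries were built with SMARTer Ultra Low chemistry. Trimmomatic, Bowtie2, STAR, HTSeq and mm10 are named, without roles or versions, in the submitters' processing notes, and no source states whether counting used strand. The authors deposited log2 CPM, 1 table per tissue, after RUVr per the tables' names; the log scale and a prior count of 2 were read from the values. CPM was recovered by undoing the log; steps of the low values gave whole numbers for 100% of values (tolerance 0.01), with totals of 27827467 to 30811856 per E14.5 library and 19601294 to 21275162 per PFC library, which are adjusted and not the sequencing depth. A step was worth 0.0339 and 0.0489 CPM. RUVr left 2 directions (E14.5) and 1 (PFC) of almost no variance.

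Genes reaching 1 CPM in 4 or more E14.5 libraries, or 6 or more PFC libraries, were tested on log2(CPM + 0.5) with limma 3.58.1 in R 4.3.3 (lmFit, eBayes with trend and robust), with genotype and labelled sex as covariates, all libraries of a tissue in 1 fit and Benjamini-Hochberg adjustment over all genes. The call was an adjusted p under 0.05. A fold change on this scale understates that of low genes. The fit was tested on simulated data. Gene positions, lengths and GC content came from GENCODE vM21 (GRCm38), with IDs for 13840 and 14098 genes; start sequences came from RefSeq. Symbols were matched exactly, and the marker lists covered erythroid, choroid plexus, meningeal, endothelial, microglial, oligodendrocyte and astrocyte genes. Named genes were, per comparison, up to 6 called genes per direction with the lowest p, the 3 highest and lowest per kilobase, the 3 largest and smallest coefficients of variation, genes with a listed role, up to 3 genes of each other list by p, and Myt1l; a gene outside these is named where a count is spelled out. Alternatives were other pseudocounts, filters, scaling, GC and length correction, variance models, voom, blocks, subsets and leaving out each library. The members and lists were chosen with earlier results of these data known. Nothing says that libraries of a group came from separate litters, so p-values measure the spread that RUVr left between these samples. The main fit spent no degrees of freedom on the directions removed, so its p-values may be too small. With those directions as covariates, E14.5 Het had 10 members higher and 0 lower, against 147 and 188 over all genes. E14.5 Hom then had 2 higher and 3 lower, against 198 and 313 over all genes. The single-library values of 1 member are not reported here. Figures were drawn with matplotlib 3.10.9.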

Additional observations from a re-analysis of the deposited data

Results flagged for a closer look

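Single libraries that stood apart from the rest of their group were looked for. The measure was the gap to the nearest other library, relative to the whole range. It was taken for 48 values, named genes and the sum over the 76, in 5 groups (240 checks). In all 15 were found, and chance alone gives about 1 in 20 such groups. Over 240 checks that is not far below the 15 found. In the PFC the members moved together (median pairwise correlation within genotypes 0.897), so genes flagged in 1 library are not separate events. In PFC Het, library Het M05 was the low one for 11 genes. It had 437.2 CPM of Rpl26 against 550.3 to 600.4 in the other 5 libraries, 267.9 of Rpl27, 1424 of Rpl3, 578.9 of Rpl7, 459.9 of Rplp0, 369.2 of Rplp2, 1046 of Rps14, 256.1 of Rps15, 771.4 of Rps3, 303.4 of Rps4x and 523.8 of Rps6. Its summed CPM of the 76 genes was 28646, the lowest of the 12 PFC libraries, and its mitochondrially encoded sum was 43350 CPM within a range of 41850 to 62590 in Het. In PFC WT, library WT F06 was high for Rps29 (699.4 CPM against 458.9 to 528.8). In E14.5 cortex, Hom F09 was high for Rps2 (458.0 CPM against 243.3 to 274.4), WT F04 was low for Rpl23a (203.6 against 228.1 to 236.3) and Het F10 was low for Rpl41 (2560 against 2982 to 3170).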

How the results depend on the processing

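In E14.5 Het, the count of 15 higher became 5 with GC and length correction, 1 without trend and robust, 5 in libraries labelled female and 0 with the title number as a replicate block; GC and length correction gave 3 lower in place of 0 and took Rps15 from 0.03 to -0.25. Leaving out 1 library gave 4 to 23 higher and 0 to 2 lower. Over all genes the higher calls were 353 in the main fit. They were 112, 114, 189 and 0 in the fits named above, in that order, and 54 to 586 with 1 library left out. In Hom, 3 higher and 4 lower became 0 and 0 without trend and robust and with the replicate block. The higher count became 7 with only the groups compared (624 over all genes, against 401 in the main fit). Without trend and robust, 223 higher and 245 lower remained over all genes. Leaving out 1 library gave 1 to 5 higher and 0 to 4 lower. The cause was not tested, except that subsets hold fewer samples. The title numbers are parts of animal identifiers and do not pair animals; the replicate block leaves 5 higher and 1 lower over all genes in Hom. The other alternatives, including voom and the identifier prefix as block, kept the counts of 15, 3 and 4 within 1.5 times, and counts of 0 in Hom against Het and in the PFC stayed 0. In the PFC the title number could not be used as a block, since that fit had no estimate or no residual degrees of freedom. It would not have been a paired analysis. Fits of the sex interaction without sex or in females alone were not possible either. Sequencing depth is unknown, since the deposited numbers are adjusted.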
